A study of Mus musculus with 6 samples.

Results

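The cytosolic ribosomal protein genes are described here in the livers of mice labelled SHP -/- and of wild-type mice. Members were rows of the deposited gene table whose symbol is Rps, Rpl or Rplp followed by a number, with at most an a, x or l and 1 further digit after it, and whose counts are filled in all 6 libraries. The rule used no measured level. It took 82 genes of the 19594 with filled counts, 31 of the small and 51 of the large ribosomal subunit, and 3 further rows that match by symbol (Rpl39l, 1 row named Rps13 and 1 named Rpl41) have empty counts. The libraries came from 3 SHP -/- and 3 wild-type animals, all male, of C57BL6 background and 2 months old. SHP is an orphan nuclear receptor, encoded by Nr0b2, that represses other transcription factors. RNA carrying a 5′ cap was drawn from liver RNA with an EIF4E variant that binds the cap tightly, and read from both ends, so values refer to capped RNA, not to total RNA. The sources used here do not say how the SHP allele was made.

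The cytosolic ribosome joins a small subunit, which reads the mRNA, to a large subunit, which forms the peptide bond and releases the chain through an exit tunnel. Each subunit holds its ribosomal RNA and a fixed set of proteins, most of them in a single copy, and the P stalk of the large subunit is the exception, with pairs of P1 and P2 on a base of P0. In mammals the mRNAs of these proteins are known for a 5′ terminal oligopyrimidine (TOP) start, a run of C and T at the cap through which LARP1 and the TOR kinase control their translation. Hepatocytes make ribosomes in large numbers for the secretion of plasma proteins.

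The libraries held 4494353, 5109217 and 7225842 counts in SHP -/- livers, against 5798186, 4982530 and 6155064 in wild-type livers. Mitochondrially encoded genes took 5.66% to 7.10% of counts in SHP -/- libraries and 10.2% to 10.3% in wild-type libraries. Nr0b2 itself was measured at 8.01 ± 2.03 CPM in SHP -/- livers and 14.5 ± 2.87 CPM in wild-type livers (SD, n = 3 each), where CPM is a count relative to the scaled library size. This was a log2 difference of -0.81 (limma voom, Benjamini-Hochberg adjusted p = 0.0442). The transcript was thus lower but present in the libraries labelled SHP -/-. Summed hepatocyte markers lay at 101430 to 105360 CPM in SHP -/- libraries and 92804 to 116480 CPM in wild-type libraries. Of all 11794 genes tested, 894 were higher and 819 lower in SHP -/- livers at an adjusted p under 0.05. With library totals that leave out mitochondrially encoded genes, the split was 686 higher and 1029 lower. Each sequencing lane held 3 libraries, and since the labels do not say which, genotype and lane cannot be told apart.

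Runs of C and T near the annotated start were read from RefSeq sequence (GRCm38.p6) for the 55 members with an entry. The longest unbroken run in the 20 bases before and the 20 bases from that start on was taken, on the gene's own strand. Bases outside that window were not counted. For genes with several starts, the start with the longest run was taken. Such a run of at least 8 bases stood at 29 of the 55 members (52.7%), against 4965 of 27025 genes in the whole set (18.4%). By subunit it was 10 of 20 small and 19 of 35 large subunit genes. A run in this window need not lie at the cap, so these are not counts of TOP starts. That of Rps25, for example, held 12 bases, began 20 bases before the annotated start and ended before it. The 3 longest runs that lay whole in a window of 30 bases (15 before the start and 15 from it on), and the longest such run of the small subunit, are shown first. The 5 members that passed the test below and have an entry follow. Capitals mark the C and T run where it falls in the 30 bases.
Rpl7a (chr2:26910792-26910821, plus strand): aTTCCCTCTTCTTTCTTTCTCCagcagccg
Rpl35 (chr2:39005117-39005146, minus strand): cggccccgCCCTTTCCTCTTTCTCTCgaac
Rpl15 (chr14:18270972-18271001, minus strand): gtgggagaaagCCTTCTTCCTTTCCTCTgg
Rps10 (chr17:27635230-27635259, minus strand): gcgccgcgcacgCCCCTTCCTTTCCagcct
Rps2 (chr17:24720048-24720077, plus strand): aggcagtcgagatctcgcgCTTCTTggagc
Rps21 (chr2:180257364-180257393, plus strand): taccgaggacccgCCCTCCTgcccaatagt
Rpl6 (chr5:121204486-121204515, plus strand): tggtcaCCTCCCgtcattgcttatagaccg
Rpl23 (chr11:97782425-97782454, minus strand): acgaggTCCggtcacgtggctgagtgggcg
Rpl7l1 (chr17:46782642-46782671, minus strand): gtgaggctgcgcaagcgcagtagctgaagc
The runs of Rpl7a, Rpl35, Rpl15 and Rps10 held 21, 18, 17 and 13 bases. Those of Rps2, Rps21, Rpl6, Rpl23 and Rpl7l1 held 6, 7, 6, 3 and 3 bases, so none of these 5 reached 8, against 26 of the 43 members with an entry that were tested and did not pass. This is a description of annotated starts, which need not be the start used in liver. It leaves out Rplp1 and Rpl8, which passed but have no entry, so it does not cover all members that passed.

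The members took a small part of the counts, and their levels were unequal. Per kb of counted length, levels averaged over the 6 libraries ran from 0.106 to 270 CPM per kb, with a median of 5.50, and 39 of the 82 lay under 5. The 5 highest held 46.1% of the summed level. In the large subunit the highest were Rpl8 (uL2, beside the peptidyl transferase centre), Rpl4 (uL4, which lines the exit tunnel) and Rplp1 (P1 of the stalk), at 270, 241 and 197 CPM per kb. In the small subunit Rps15 (uS19, in the head) was among the highest, at 97.9 CPM per kb. Small subunit genes had a median of 16.0 CPM per kb and large subunit genes 4.34. Members whose proteins stand in equal number in the ribosome were therefore far apart in capped RNA per counted length. The order depends on the deposited lengths. Rps3, with 4338 bases, stood at 56.4 CPM per kb, below Rps15 with 630 bases. In CPM Rps3 was the higher, at 236 in SHP -/- and 253 in wild-type livers, against 67.9 and 55.4 for Rps15. Over the 82 genes, counted length and level per length had a Spearman correlation of -0.0676.

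**Figure D1:**
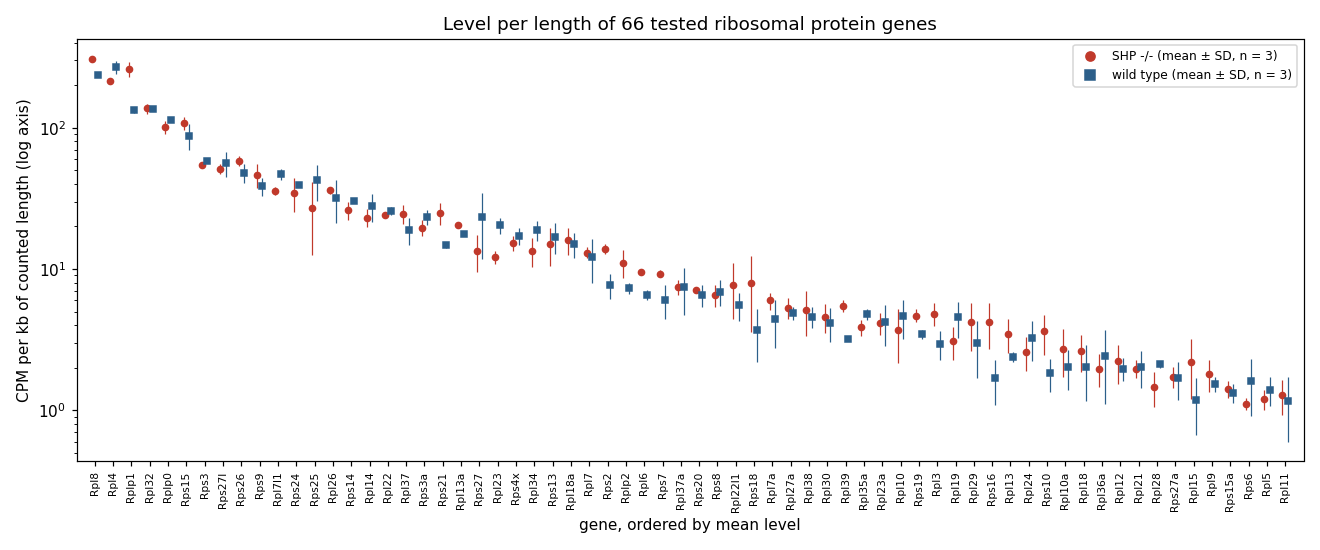
Level per counted length (CPM per kb, log axis) of 66 tested ribosomal protein genes, ordered by their mean, with mean ± SD of 3 SHP -/- libraries (circles) and 3 wild-type libraries (squares). Levels fall from 270 CPM per kb at Rpl8 to near 1 at Rpl11, and the order is close in both genotypes.

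The order of levels was alike in both genotypes, with a Spearman correlation of 0.963 between the SHP -/- and wild-type means over the 82 genes, which share gene lengths and counting. The low end included Rps6 (eS6, the substrate of the S6 kinases), with 7, 10 and 13 counts in SHP -/- libraries and 15, 7 and 23 in wild-type libraries. It also included Rpl5 and Rpl11, the partners of 5S rRNA, at 1.30 and 1.22 CPM per kb. The paralogue Rps27l, at 53.4 CPM per kb, was counted above most canonical small subunit genes.

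Shared sequence limits what a count of these genes can mean, because many have processed pseudogenes and reads were 36 cycles long. For each member, the share of 36-base windows of its coding transcripts that also occur in a transcript of another gene was computed (GENCODE annotation on GRCm38). It had a median of 44.5% over the 78 members with such a transcript and ran from 0% in Rpl3l to 98.2% in Rpl35. The treatment of reads with several alignments in the authors' counting was not given in the sources used here. Across genes, the shared windows had a Spearman correlation of -0.191 with the level per length (78 genes) and 0.0357 with the log2 difference between genotypes (68 genes). Rps6 and Rpl5, both low, shared 84.8% and 86.1% of their windows, while Rplp1, among the highest, shared 70.5%. Rps3 and Rpl8, both high, shared 6.16% and 7.59%.

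**Figure D2:**
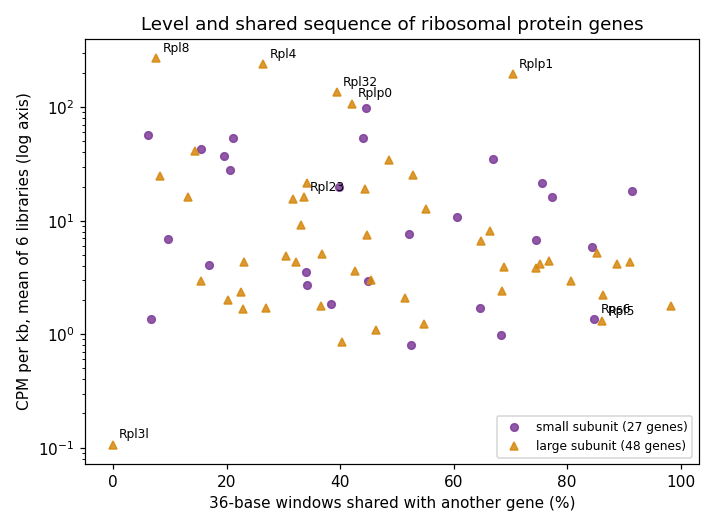
Mean level over 6 libraries (CPM per kb, log axis) against the percentage of 36-base windows shared with another gene, for 27 small subunit genes (circles) and 48 large subunit genes (triangles). Rpl8 combines a high level with few shared windows and Rplp1 is high at 70.5%.

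Some rows do not stand for the gene their symbol names. A later annotation gives the identifiers called Rps27, Rps13 and Rpl24 in the table the names Rps27rt, Rps13-ps1 and Zbtb11. Of the 3 rows named Rpl41 (the shortest ribosomal protein), it names 1 Gm10076 and has no entry for the others. Their values are therefore uncertain as values of those genes, and none of them passed the test. The 3 Rpl41 rows held 1, 11 and 14 counts over all libraries.

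The comparison of SHP -/- with wild-type livers covered 69 members, 27 of the small and 42 of the large subunit. The 13 members under the filter on low counts (Rps12, Rps23, Rps28, Rps29, Rpl17, Rpl27, Rpl31, Rpl35, Rpl36, Rpl3l and the 3 Rpl41 rows) held between 1 and 63 counts over all libraries. Among those tested, 7 rose, 2 fell and 60 did not pass the adjusted p of 0.05 (limma voom, adjusted over all genes). Rps2, Rps21, Rplp1, Rpl6 and Rpl8 were among those that rose, and those that fell were Rpl23 and Rpl7l1. This was 13.0% of the members, against 14.5% of all genes tested (7.58% higher, 6.94% lower). The share is near the background, so the count says nothing particular of these genes. An unadjusted p under 0.05 was found for 20 of the 69, where the share over all genes was 30.6%. The members' median log2 difference was 0.129, with 43 positive and 26 negative differences, beside a median of -0.00639 over all genes.

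**Figure D3:**
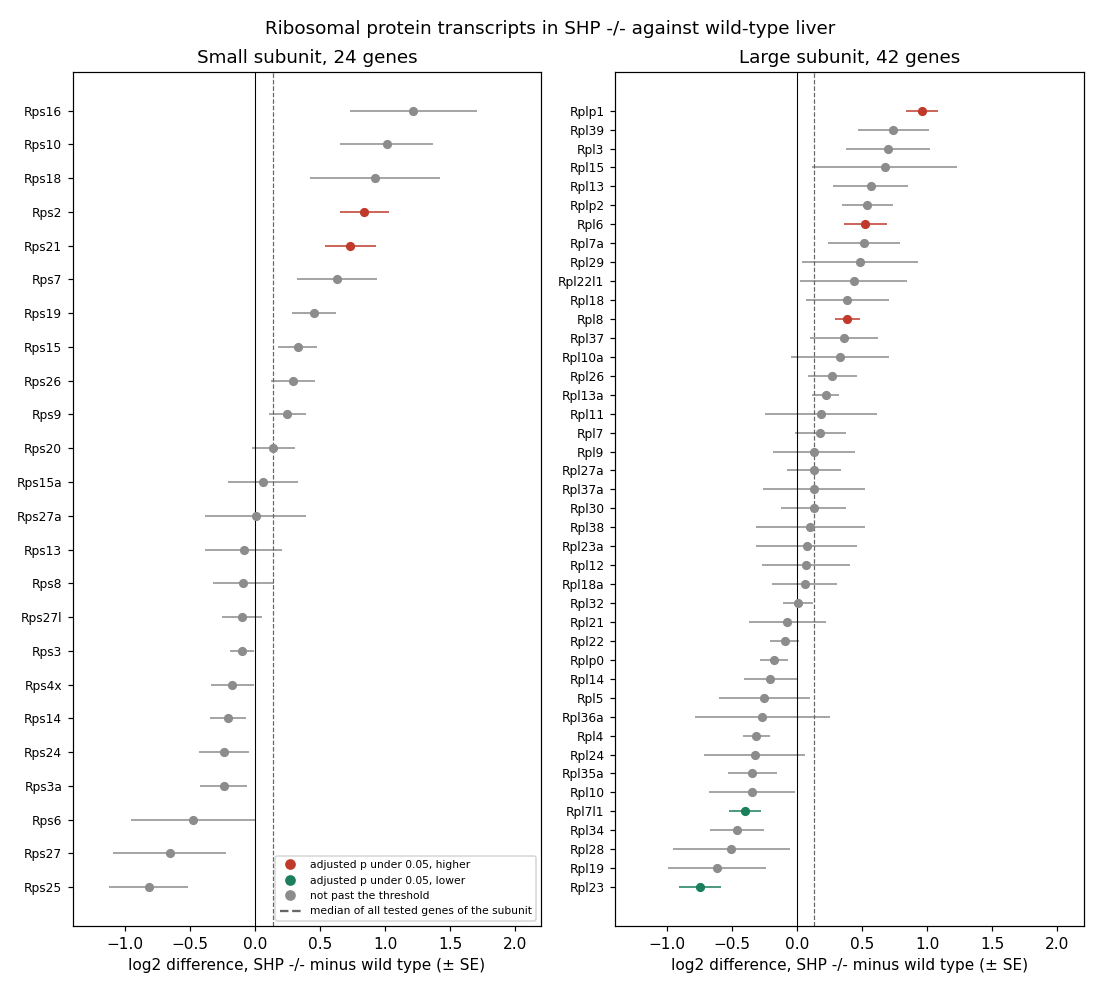
Log2 difference (SHP -/- minus wild type, ± SE, limma voom) of 24 small subunit and 42 large subunit genes, sorted within each subunit, with dashed lines at the medians of 0.14 and 0.128 over all tested genes of the subunits. Genes past the adjusted p of 0.05 are coloured: 2 small and 3 large subunit genes lie to the right and 2 large subunit genes to the left.

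By subunit, the medians were 0.14 in the small and 0.128 in the large subunit. Without the renamed rows, left out after seeing the data, they were 0.249 in the small and 0.129 in the large subunit. The closeness of the 2 medians thus depends on rows that are uncertain as values of their genes. In the small subunit 4 genes rose and none fell of 27. In the large subunit 3 rose and 2 fell of 42. The difference between the subunits was not tested. In 16 of the tested members every SHP -/- library lay above every wild-type library, 9 of them in the small and 7 in the large subunit, where 17.2% of all tested genes did so. In 7 of the tested members every SHP -/- library lay below, 1 in the small subunit (Rps14) and 6 in the large (Rpl23, Rpl28, Rpl34, Rpl35a, Rpl4 and Rpl7l1), where the background was 17.9%. Among these, Rps16 (above) and Rpl28 (below) passed the filter on low counts only through the group where they are high. Small subunit differences were also more spread, with an SD over genes of 0.586, against 0.402 in the large subunit.

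The members that passed were among the more deeply counted. All 9 had at least 500 counts over the 6 libraries, a limit chosen after the values were seen, and they were 9 of 33 such members (27.3%), against 21.2% of all genes with as many counts. None of the 36 tested members under 500 counts passed. Their SE had a median of 0.354, against 0.164 in the deeper members, so their differences were measured with a larger error.

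Rps2 (uS5, near the mRNA entry) was measured at 25.6, 22.2 and 23.0 CPM in SHP -/- livers, against 16.0, 11.02 and 12.2 CPM in wild-type livers. The SHP -/- libraries were close to each other and all above wild type, with a log2 difference of 0.84 ± 0.19 (SE; limma voom, adjusted p = 0.0102). Without wild-type replicate 3 the adjusted p was 0.0628. Rps21 (eS21, a protein of the small subunit found in eukaryotes only) stood at 16.4, 23.6 and 20.4 CPM in SHP -/- livers, against 11.8, 11.6 and 12.7 CPM in wild-type livers. The lowest SHP -/- library was above the highest wild-type library, at a log2 difference of 0.73 ± 0.20 (SE; limma voom, adjusted p = 0.0239). That call did not hold in 5 of 6 fits with 1 library left out, with an adjusted p of up to 0.0792.

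**Figure D4:**
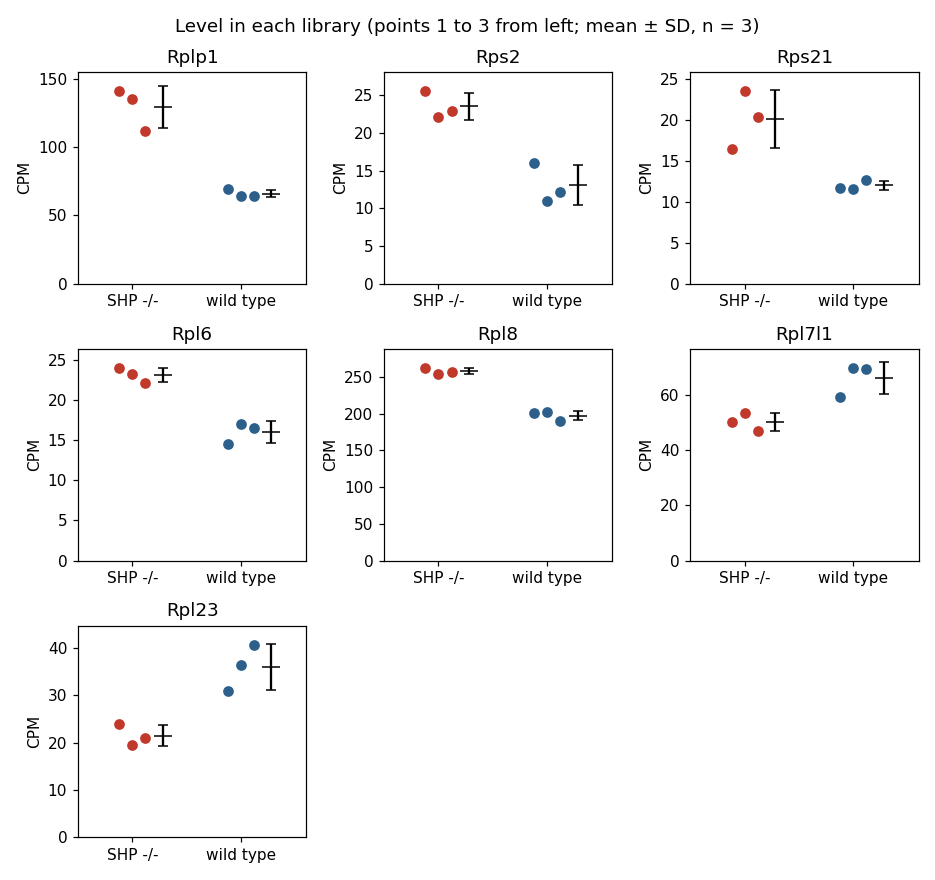
Level (CPM, axes from 0) of 7 ribosomal protein genes past the threshold in each of 3 SHP -/- and 3 wild-type libraries, with mean ± SD beside the points. In 5 panels all SHP -/- points lie above the wild-type points, and in the panels of Rpl7l1 and Rpl23 they lie below.

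Several other small subunit genes did not pass the test. Rps10 (eS10, in the head) was counted 20, 45 and 52 times in SHP -/- libraries and 20, 21 and 16 times in wild-type libraries, a log2 difference of 1.01 ± 0.36 (SE; limma voom, adjusted p = 0.0734). Rps16 (uS9, whose tail reaches the P site) had 21, 14 and 20 counts in SHP -/- libraries and 11, 6 and 6 in wild-type libraries, at 1.22 ± 0.49 (SE; limma voom, adjusted p = 0.11). In wild-type livers it stood at 1.88, 1.25 and 0.953 CPM, about or under the filter limit of 1.83 CPM. Rps16 thus passed the filter on low counts only through the group where it is high, so its difference carries little weight. Rps19 (eS19, in the head and the gene most often mutated in Diamond-Blackfan anaemia) averaged 22.0 ± 2.33 CPM in SHP -/- livers and 16.1 ± 1.29 CPM in wild-type livers (SD, n = 3 each; limma voom, adjusted p = 0.0934). The groups did not overlap in these 3 genes on the CPM scale. Rps25 (eS25, known for its part in internal ribosome entry) was the lowest in log2 difference, at -0.82 ± 0.30 (SE; limma voom, adjusted p = 0.0868). Its groups overlapped, with 19.2, 7.27 and 9.40 CPM in SHP -/- livers and 21.8, 12.7 and 21.8 CPM in wild-type livers, and 1 SHP -/- library was at more than 2 times the others.

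Rps3 (uS3, at the mRNA entry channel) was the most counted small subunit gene and its means were close, at 236 ± 9.33 CPM in SHP -/- livers and 253 ± 7.68 CPM in wild-type livers (SD, n = 3 each; limma voom, adjusted p = 0.516). Its log2 difference was -0.10 ± 0.10 (SE), and 6.16% of its windows are shared. Rps14 (uS11, at the platform) averaged 36.0 ± 5.29 CPM in SHP -/- livers and 42.0 ± 0.345 CPM in wild-type livers, at -0.21 (limma voom, adjusted p = 0.335). Rps4x (eS4, X-linked), Rps27l (a paralogue of Rps27) and Rps6 had log2 differences of -0.17, -0.10 and -0.47, none past the threshold. Rps15 stood at 0.33, also below it.

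In the large subunit the P stalk, which recruits and activates the elongation factors, had unequal differences among its 3 genes. Rplp1 stood at 141, 135 and 112 CPM in SHP -/- livers, against 69.1, 64.2 and 64.5 CPM in wild-type livers. The groups lay far apart, with a log2 difference of 0.96 ± 0.12 (SE, n = 3 each; limma voom, adjusted p = 0.000318), the smallest adjusted p of the members. Rplp2 (P2, which pairs with P1) was at 26.9, 18.5 and 18.9 CPM in SHP -/- livers, against 13.6, 13.3 and 15.6 CPM in wild-type livers, at 0.54 ± 0.20 (SE; limma voom, adjusted p = 0.0817). Rplp0 (uL10, the base of the stalk) overlapped between groups, with 188, 159 and 157 CPM in SHP -/- livers and 186, 196 and 185 CPM in wild-type livers, at -0.18 ± 0.11 (SE; limma voom, adjusted p = 0.277). Within each library, which needs no scaling, the ratio of Rplp1 to Rplp0 counts was 0.751, 0.849 and 0.714 in SHP -/- livers, against 0.371, 0.328 and 0.348 in wild-type livers. That of Rplp2 to Rplp0 was 0.143, 0.116 and 0.121 in SHP -/- livers, against 0.0733, 0.0679 and 0.0840 in wild-type livers. Neither ratio overlapped between genotypes. These ratios were chosen after the values were seen and were not tested. Rplp1 lies at mm9 chr9:61761091-61762345 (minus strand).

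Rpl8, the member with the highest level, was close to constant within each genotype. It stood at 262, 254 and 257 CPM in SHP -/- livers, against 200, 202 and 190 CPM in wild-type livers, a log2 difference of 0.38 ± 0.09 (SE, n = 3 each; limma voom, adjusted p = 0.0163). The call was lost without SHP -/- replicate 1 (adjusted p = 0.0555) and without wild-type replicate 3 (adjusted p = 0.0737). Rpl4, next in level per length, had the opposite order, with 295, 298 and 302 CPM in SHP -/- livers and 336, 369 and 412 CPM in wild-type livers. Its groups did not overlap, but at -0.31 ± 0.10 (SE; limma voom, adjusted p = 0.055) it missed the threshold. It passed with robust variance moderation (adjusted p = 0.0492), with totals free of mitochondrially encoded genes (adjusted p = 0.0313) and without wild-type replicate 1 (adjusted p = 0.0338). Rows for the small nucleolar RNAs SNORD16 and SNORD18 overlap the span of Rpl4 on its strand. Whether they also overlap its 1389 counted bases was not checked, and only there might reads of the gene and of these RNAs not be told apart.

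Rpl23 (uL14, at the face that meets the small subunit, and the docking site of the assembly factor eIF6) fell. Its levels were 24.0, 19.4 and 21.1 CPM in SHP -/- livers, against 30.9, 36.4 and 40.7 CPM in wild-type livers. All SHP -/- libraries lay below all wild-type libraries, with a log2 difference of -0.75 ± 0.16 (SE, n = 3 each; limma voom, adjusted p = 0.00888). Without wild-type replicate 3 the adjusted p was 0.0535. A row for SNORA21 overlaps Rpl23 on the same strand (mm9 chr11:97638841-97643751, minus). Rpl7l1 (a paralogue of Rpl7 whose yeast relative works in assembly of the large subunit) also fell, with 50.01, 53.4 and 47.0 CPM in SHP -/- livers, against 59.2, 69.6 and 69.2 CPM in wild-type livers. At a log2 difference of -0.40 ± 0.12 (SE; limma voom, adjusted p = 0.0446), it did not pass in 5 of 6 fits with 1 library left out and in the fit with no filter on low counts (adjusted p = 0.0835). A row on the opposite strand overlaps it, and the use of strand in counting was not given in the sources used here. Rpl7 itself averaged 35.1 ± 3.11 CPM in SHP -/- livers and 32.8 ± 11.3 CPM in wild-type livers (SD, n = 3 each), with no call.

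Rpl6 (eL6, on the solvent side of the large subunit) rose by the narrowest margin. Its levels of 24.0, 23.2 and 22.2 CPM in SHP -/- livers lay above the 14.5, 17.05 and 16.5 CPM in wild-type livers, at a log2 difference of 0.52 ± 0.16 (SE; limma voom, adjusted p = 0.0479). It passed in none of the 6 fits with 1 library left out, with adjusted p from 0.0735 to 0.122. It was also lost with no filter on low counts (adjusted p = 0.0864) and with totals free of mitochondrially encoded genes (adjusted p = 0.0729). A row for SNORA42 overlaps Rpl6 on its strand. Rplp1, by contrast, passed under every alternative run for it, including each left-out library.

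Among the other large subunit genes, Rpl3 (uL3, which reaches the peptidyl transferase centre) averaged 6.24 ± 1.12 CPM in SHP -/- livers and 3.80 ± 0.883 CPM in wild-type livers (SD, n = 3 each), at 0.70 ± 0.32 (SE; limma voom, adjusted p = 0.162). Rpl39 (eL39, a small protein in the wall of the exit tunnel) averaged 7.88 ± 0.782 CPM in SHP -/- livers and 4.61 ± 0.173 CPM in wild-type livers (SD, n = 3 each; limma voom, adjusted p = 0.084), with no overlap. Rpl5 and Rpl11, which bind 5S rRNA and, when unassembled, MDM2, had log2 differences of -0.25 and 0.19, both well within their errors. Rpl10 (uL16, added late in the cytoplasm), Rpl22l1 (a paralogue of Rpl22), Rpl29 (eL29) and Rpl13a (uL13) stood at -0.35, 0.43, 0.48 and 0.22, none past the threshold. Rpl32 (eL32) was nearly equal, at 70.7 ± 5.90 CPM in SHP -/- livers and 70.6 ± 2.35 CPM in wild-type livers (SD, n = 3 each). Rpl3l, a paralogue of Rpl3 in striated muscle, had 4 counts in all libraries together.

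Summed over all members, ribosomal protein genes took 0.266%, 0.254% and 0.259% of counts in SHP -/- libraries, against 0.240%, 0.239% and 0.242% in wild-type libraries. The groups did not overlap, and the means were 0.260% ± 0.00605 in SHP -/- and 0.240% ± 0.00159 in wild-type livers (SD, n = 3 each). As a share of counts outside mitochondrially encoded genes, which themselves differed between the groups, the means were 0.278% ± 0.00759 in SHP -/- and 0.267% ± 0.00164 in wild-type livers. A bulk sample cannot tell fewer cells of a type from less RNA per cell.

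Which subunit carried the difference depended on the scale. Small subunit genes added up to 1154, 1032 and 1041 CPM in SHP -/- livers, against 951, 928 and 880 CPM in wild-type livers, with no overlap. Large subunit genes added up to 1579, 1519 and 1471 CPM in SHP -/- livers, against 1420, 1543 and 1483 CPM in wild-type livers, and overlapped. The large subunit share of counts was 0.152% in SHP -/- and 0.148% in wild-type livers, and the order turned round outside mitochondrially encoded genes, at 0.163% in SHP -/- and 0.165% in wild-type livers.

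**Figure D5:**
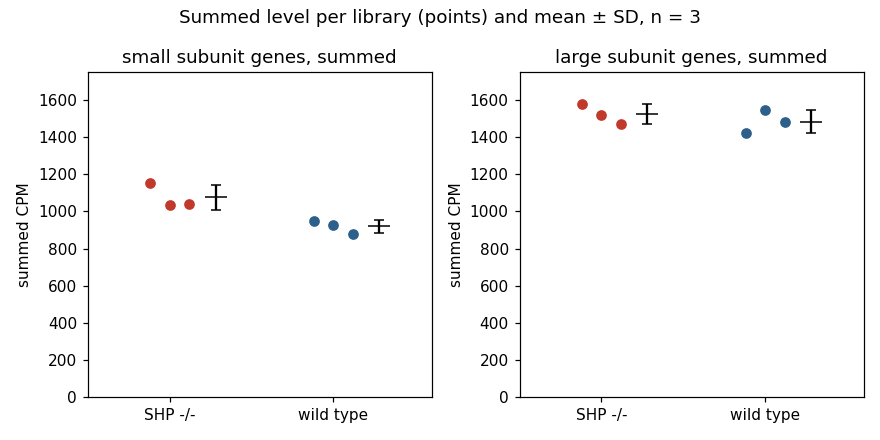
Summed CPM of the 31 small and 51 large subunit genes in each of 3 SHP -/- and 3 wild-type libraries (points), with mean ± SD; axes start at 0. The SHP -/- points lie above the wild-type points in the small subunit (1032 to 1154, against 880 to 951 CPM) and overlap with them in the large subunit.

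The ratio of small to large subunit counts was 0.731, 0.679 and 0.708 in SHP -/- livers, against 0.670, 0.602 and 0.593 in wild-type livers. These did not overlap, but the highest wild-type library came within 0.01 of the lowest SHP -/- library. With levels per length the ratio averaged 0.597 ± 0.0242 in SHP -/- and 0.577 ± 0.0340 in wild-type livers (SD, n = 3 each), and the groups overlapped. Per length, both sums were higher in SHP -/- livers without overlap. Small subunit genes summed to 821 ± 47.7 CPM per kb in SHP -/- and 709 ± 31.4 CPM per kb in wild-type livers, and large subunit genes to 1374 ± 50.8 CPM per kb in SHP -/- and 1230 ± 41.7 CPM per kb in wild-type livers (SD, n = 3 each). The large subunit thus gave more of the summed difference per length (144 CPM per kb, against 112 in the small subunit), and the small subunit more of it in CPM (156, against 41.4 in the large). Per length too, single genes weighed heavily, above all Rplp1 at 261 CPM per kb in SHP -/- and 133 in wild-type livers. Rpl8 stood at 306 in SHP -/- and 234 in wild-type livers, and Rpl4 and Rplp0 went the other way, at 215 and 101 in SHP -/- and 268 and 114 in wild-type livers. In CPM of the large subunit, differences of 63.5 CPM at Rplp1 and 60.2 CPM at Rpl8 stood against -74.0 CPM at Rpl4 and -21.1 CPM at Rplp0.

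By position, 14 tested members lie on chromosome 7, more than on any other, and 11 of them had a positive difference. Their median log2 difference was 0.287, against 0.0729 for the 55 members elsewhere. All 853 tested genes of chromosome 7 had a median of 0.0998, and 9.50% of them were higher in SHP -/- livers, where 2 of the 14 members were. Chromosome 7 was chosen after its values were seen.

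Ribosome-bound proteins whose symbols the rule does not take were also measured. Of 5 with counts, 2 rose, among them Gnb2l1 (RACK1, the scaffold on the small subunit head), and the others did not pass, where 7.58% of all genes rose. Gnb2l1 averaged 223 ± 12.3 CPM in SHP -/- and 162 ± 14.9 CPM in wild-type livers (SD, n = 3 each), at 0.46 ± 0.11 (SE; limma voom, adjusted p = 0.0112). Rpsa (uS2), Fau (ubiquitin-like protein fused to eS30) and Rpl36al had log2 differences of 0.71, 0.32 and 0.04, so all 5 were positive in sign, but Rpl36al was negative (-0.02) with totals free of mitochondrially encoded genes.

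Genes of translation factors and of some other proteins, listed for mRNAs also known for TOP starts, did not share one direction. Of 16 tested, 1 rose and 2 fell, with a median log2 difference of -0.0737. Eif3f (a subunit of eIF3) was higher, at 0.49 (limma voom, adjusted p = 0.0381), and Npm1 (nucleophosmin, a nucleolar chaperone) and Eef1b2 (the exchange factor of eEF1A) were lower, at -0.63 and -0.42 (limma voom, adjusted p = 0.0137 and 0.0136). Eef2, the translocase of elongation, averaged 1574 ± 105 CPM in SHP -/- and 1295 ± 30.6 CPM in wild-type livers (SD, n = 3 each), at 0.28 (limma voom, adjusted p = 0.0609). Of 52 ribosome biogenesis genes, 4 rose (Fbl, Bop1, Eif6 and Rcl1) and 2 fell (Gnl3 and Ddx10), with a median of -0.0512. Fbl (fibrillarin, the methyltransferase of box C/D particles) stood at 0.91 ± 0.23 and Bop1 (a large subunit assembly factor) at 0.62 ± 0.17 (SE; limma voom, adjusted p = 0.0206 and 0.0284). Eif6, whose protein docks on uL14, averaged 46.9 ± 1.21 CPM in SHP -/- and 32.98 ± 1.41 CPM in wild-type livers (SD, n = 3 each; limma voom, adjusted p = 0.016), while Rpl23, which encodes uL14, was lower. Eif6 was set beside Rpl23 after the values were seen, and a link between them was not tested. It was not among the genes refitted with a library left out. Gnl3 (nucleostemin) was at -0.61 (limma voom, adjusted p = 0.0437), and Ncl (nucleolin) at -0.44 missed the threshold (limma voom, adjusted p = 0.0911).

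Of 20 tested genes of rRNA transcription, 2 rose and none fell. Myc, the transcription factor known for driving ribosome production, averaged 29.5 ± 6.94 CPM in SHP -/- and 7.78 ± 7.78 CPM in wild-type livers (SD, n = 3 each), at 2.26 ± 0.43 (SE; limma voom, adjusted p = 0.00434). Taf1c, a subunit of the selectivity factor of RNA polymerase I, averaged 2.04 ± 0.213 CPM in SHP -/- and 0.407 ± 0.232 CPM in wild-type livers (SD, n = 3 each), at 2.19 (limma voom, adjusted p = 0.0381). Its counts were 10, 10 and 14 in SHP -/- libraries and 1, 2 and 4 in wild-type libraries. Taf1c thus passed the filter on low counts only through the group where it is high, so its call carries little weight. Only 1 fit with a library left out could test it. Ubtf, which opens the rDNA promoter, did not pass, at 0.11. In the list of TOR and LARP1 control, 3 of 27 rose and none fell: Rptor, Eif4ebp2 and Mtor, at 0.55, 0.47 and 0.40 (limma voom, adjusted p = 0.0238, 0.018 and 0.0325). None of 10 tested genes of the p53 response to free 5S particles passed (limma voom, 2 at an unadjusted p under 0.05), and Mdm2 stood at -0.25. Of 32 tested factors of initiation and termination 2 rose (Eif2b2 and Eif2b5) and 5 fell (Eif3j, Eif4a2, Eif5b, Eif1a and the release factor Gspt1), with a median of 0.0226. The share called was 18.8% of the genes listed for TOP starts, 11.5% of biogenesis genes, 10% of rRNA transcription genes, 11.1% of TOR and LARP1 genes and 21.9% of initiation and termination factors, beside 14.5% of all genes. Of the 16 called genes of these lists that were chosen for refitting, each lost its call in at least 1 fit with a library left out. Myc did so without wild-type replicate 3 (adjusted p = 0.0598), and had 164, 133 and 185 counts in SHP -/- libraries, against an uneven 98, 12 and 26 counts in wild-type libraries.

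Markers of other liver cells were measured beside these sums. Macrophage markers summed to 597 to 802 CPM in SHP -/- libraries and 483 to 569 CPM in wild-type libraries, without overlap. Of 13 tested markers 4 rose (Mpeg1, C1qa, C1qc and Marco, with overlapping groups in C1qc), where 7.58% of all genes rose, and none was at 0 in all libraries. The lack of overlap rests on Mpeg1, at 131 ± 9.11 CPM in SHP -/- and 60.2 ± 13.4 CPM in wild-type livers (SD, n = 3 each). Among the 9 that did not pass, Clec4f, Cd68, Emr1 and Vsig4 had log2 differences of 0.10, -0.01, -0.13 and -0.08. Erythroid markers summed to 195 to 333 CPM in SHP -/- and 195 to 222 CPM in wild-type libraries. Proliferation markers summed to 56.9 to 67.4 CPM in SHP -/- and 71.1 to 82.9 CPM in wild-type libraries, without overlap, and 1 of 7 tested fell (Ccnd1). That gap rests on Ccnd1, at 20.05 ± 1.64 CPM in SHP -/- and 37.06 ± 7.13 CPM in wild-type livers (SD, n = 3 each). Of the 7 tested, 3 had a positive and 4 a negative log2 difference. Mcm2 and Pcna were among the positive ones, at 0.85 and 0.39, neither past the threshold. Lymphocyte markers summed to 16.7 to 24.7 CPM in SHP -/- and 24.1 to 27.3 CPM in wild-type libraries. SHP -/- replicate 1, which had the highest ribosomal protein sum (2733 CPM), also had the lowest endothelial and stellate cell sums, at 422 and 265 CPM, against 659 to 672 and 535 to 555 CPM in the other SHP -/- libraries and 603 to 671 and 432 to 498 CPM in wild-type libraries. Their part in the ribosomal protein values was not tested.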

How the data were processed

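Capped liver RNA of 3 SHP -/- and 3 wild-type mice was analysed from the deposited gene table. The submitters' processing notes name Novoalign 2.05.33 and mm9. How reads were counted, with which annotation, strand setting and rule for several alignments, was not given in the sources used here. Whole-number counts per gene and library are what the authors deposited. Of 33495 rows, 19594 had counts in all libraries, and the others were left out. Because some lines of the table end early, the columns got a general unit in the check of units, and count-model packages were not used. Library totals were 4494353 to 7225842 counts, which limits the precision of the less abundant members.

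Genes were tested where at least 3 libraries reached 1.83 CPM (10 counts at the median library size) and the total reached 15. Scaling factors were trimmed means of M values, from own code. Log2 CPM with 0.5 added entered limma 3.58.1 (voom weights, lmFit, eBayes; R 4.3.3) with only genotype in the model, and p-values were adjusted over all genes by Benjamini-Hochberg at 0.05. Equal replicate numbers are not stated to mark a shared animal, litter or lane. The fit was tested on simulated data. Levels per length are CPM per kb of the region length deposited with each gene. Gene positions are mm9, as in the table, with starts raised by 1. Python 3.11.15, pandas 2.3.3 and matplotlib 3.10.9 were used. Promoter sequence came from RefSeq GRCm38.p6, and later gene names and transcripts from GENCODE on GRCm38; no coordinates were carried between builds.

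The members and gene lists were chosen with earlier results of these data known. Named genes were every member past the threshold, the 3 highest per length in each subunit, 20 fixed members, and of each related list the first 3 called and the most abundant other; genes outside this rule (among them Rps10, Rps16, Rps25, Rpl7, Rpl32 and Rpl39) were named after their values were seen. Alternatives were other tests, filters, scalings, pooled pseudogene rows, a replicate block and each library left out. The pooling joined only 1 pseudogene row to a member, so it cannot show what shared sequence does to these counts. The 3 libraries per group are taken from separate animals, as the labels' design text states. Some genes that the rule names are counted in the totals but not reported here.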

Additional observations from a re-analysis of the deposited data

How the results depend on the processing

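Under 15 other settings, 50 named genes gave 743 values: 646 kept direction and side of the threshold, 83 lost a call, 7 gained one and 7 changed sign. Leaving out 1 library gave 629 to 1559 genes past the threshold, against 1713, and the low value came without wild-type replicate 3 (1061 without SHP -/- replicate 1). Members higher then numbered 3 to 6 and members lower 0 to 3, with 3 and 0 without wild-type replicate 3. The median log2 differences ran from 0.0497 to 0.199 over members, from 0.109 to 0.296 in the small subunit and from 0.0381 to 0.202 in the large. With no filter on low counts 1 member was lower, and the small subunit median was 0.248. With totals free of mitochondrially encoded genes the small subunit median was 0.0814, where the median of all genes was -0.063, and the summed share differed by 0.0106 percentage points in place of 0.0199. Signs changed, with no call, for Rpl36al (-0.0184) and Eif4g1 (-0.0101) with those totals, and on leaving out 1 library for Rps27l (-0.245 to 0.0409), Rpl11 (-0.109 to 0.502), Rpl36al (-0.0508 to 0.121) and Cnbp (-0.156 to 0.0222). The cause of these moves was not tested. Alternatives added after seeing the data were leaving out renamed rows, which gave a small subunit median of 0.249, and keeping the 6 tested members under 10% shared windows. Of these 6, 2 were higher and 0 lower, where 7.58% of all genes were higher and 6.94% lower. A set of 6 is too small to fix a share.

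Same-numbered samples did not deviate together (correlations of -0.0187, -0.021 and -0.0244), so no pairing by number was seen on this measure. With 3 libraries per group it cannot settle whether equal numbers share a litter or lane. A replicate block gave 1778 genes past the threshold, with 6 members higher and 2 lower: Rpl6 lost its call (adjusted p = 0.0638). Depth limits the precision of the 36 tested members under 500 counts and the 13 under the filter.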
